A study of Homo sapiens with 18 samples.

Results

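The 5 genes described here belong to the aryl hydrocarbon receptor pathway: AHR, the receptor itself, AHRR, its repressor, TIPARP, and the cytochrome P450 genes CYP1A1 and CYP1B1. They were taken by symbol from tables of 23686 genes, and all 5 were found. CYP1A1 was selected on its own measured response, which went in opposite directions in the 2 cell lines studied, so its values are given as a description, with no test. The other 4 came with it as genes of the same pathway. All members and gene lists were chosen with earlier results of these data known, so their p-values may not be free of that choice. The study measured bulk RNA by sequencing in 2 human diffuse large B-cell lymphoma lines, OCI-Ly1 and TMD8. Cells of each line received 0.01% DMSO, the vehicle, or JIB-04 at 150 nM or 500 nM, which makes 6 groups of 3 libraries. JIB-04 is a small-molecule inhibitor of Jumonji histone demethylases. OCI-Ly1 was cultured in IMDM and TMD8 in RPMI 1640, both with serum, so line and medium cannot be told apart. The 3 libraries of a group were prepared as technical triplicates, so p-values measure only the spread between such libraries. The treatment time is not given.

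The aryl hydrocarbon receptor is a transcription factor that waits in the cytoplasm in a complex with the chaperone HSP90 and its cochaperone p23 (PTGES3). Bound by an aromatic ligand, such as a dioxin or a product of tryptophan, it enters the nucleus, pairs with ARNT and binds DNA sites with the core GCGTG. Its best-known targets are CYP1A1, CYP1A2 and CYP1B1, whose enzymes oxidise aromatic compounds including ligands of the receptor. AHRR competes with the receptor for ARNT and its sites, and TIPARP attaches ADP-ribose to the receptor and restrains it, so both act as feedback inhibitors that the receptor induces. B cells express the receptor, and its level is known to depend on their activation.

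Promoter windows of AHRR, CYP1A1 and TIPARP are shown because their RNAs changed by different amounts, while each window carries the same receptor core. Each is the 250 bases before the RefSeq start on GRCh38.p14, read 5′ to 3′ on the gene's strand. Capitals mark GCGTG, or CACGC where the core lies on the opposite strand. It was the only motif searched, and on both strands. The windows are AHRR at chr5:321464-321713 (plus strand), CYP1A1 at chr15:74725529-74725778 (minus strand) and TIPARP at chr3:156674340-156674589 (plus strand).
AHRR: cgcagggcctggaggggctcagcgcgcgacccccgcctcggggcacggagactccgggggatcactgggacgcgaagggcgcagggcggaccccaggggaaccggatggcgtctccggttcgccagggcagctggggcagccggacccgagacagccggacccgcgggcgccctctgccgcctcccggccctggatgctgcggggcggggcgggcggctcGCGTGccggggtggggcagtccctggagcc
CYP1A1: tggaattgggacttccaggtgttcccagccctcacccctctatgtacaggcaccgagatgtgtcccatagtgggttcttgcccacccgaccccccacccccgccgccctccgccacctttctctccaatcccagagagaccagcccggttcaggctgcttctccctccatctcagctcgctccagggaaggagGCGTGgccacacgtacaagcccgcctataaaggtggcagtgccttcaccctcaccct
TIPARP: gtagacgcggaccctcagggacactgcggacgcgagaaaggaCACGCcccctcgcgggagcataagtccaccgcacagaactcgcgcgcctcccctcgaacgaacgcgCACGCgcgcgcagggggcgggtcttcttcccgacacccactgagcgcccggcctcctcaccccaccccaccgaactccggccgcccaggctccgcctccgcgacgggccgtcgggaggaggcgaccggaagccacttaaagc
The AHRR window held 1 match, beginning 30 bases before the start. CYP1A1 held 1, beginning 57 bases before it. TIPARP held 2, at 208 and 142 bases, both on the opposite strand. The AHR window at chr7:17298402-17298651 (plus strand) held 0. At least 1 match was present in 32.2% of the 35116 windows of that length in the RefSeq table, and at least 2 in 10.2%. The table has 2 windows for AHRR and 3 for TIPARP, of which the first is shown. CYP1A2 was not among the genes looked up. A match is a run of letters and was not measured as a bound site here.

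Estimated counts per library totalled 17579732 to 32651115 in OCI-Ly1 and 9550092 to 20509500 in TMD8. All 4 B-cell markers reported (MS4A1, CD79A, CD79B, PAX5) were above 1 TPM in every library of both lines. Their summed level was 801 to 908 TPM in OCI-Ly1 and 488 to 845 TPM in TMD8. Of 10 markers of other cell types, 3 (CD3D, EPCAM, PECAM1) were above 1 TPM in every OCI-Ly1 library and 0 in TMD8, where 1 was at 0 throughout. The 10 summed to 10.0 to 21.3 TPM in OCI-Ly1 and 1.81 to 4.98 TPM in TMD8. At 500 nM 3 of 6 tested were called lower in OCI-Ly1, beside 25.9% of all genes. In TMD8 1 of 4 was called higher, beside 29.9% of all genes. The part of these markers in the results was not tested. TPM (transcripts per 1000000, scaled for gene length) was taken up in part by a few RNAs. In TMD8, 5 short noncoding RNAs (MIR3687, MIR3648, MIR663A, RMRP and RPPH1) took 45.9% to 50.8% of all TPM in DMSO libraries. The share was 51.2% to 55.8% for the 150 nM dose and 57.4% to 62.0% for the 500 nM dose. In OCI-Ly1 the respective shares were 13.8% to 13.9%, 13.3% to 13.9% and 19.6% to 21.2%. Their part in results on the TPM scale was not tested. Levels below are normalised read counts, CPM (counts per 1000000 after TMM scaling, edgeR's trimmed mean), unless TPM is named. TMM scaling was run within each line, so CPM levels of the 2 lines are not on a common scale.

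With DMSO alone, the lines carried the pathway at different levels, and the receptor and its repressor were far higher in TMD8. AHR measured 31.5 ± 1.52 CPM in OCI-Ly1 and 421 ± 24.6 CPM in TMD8 (SD, n = 3 in each group throughout). AHRR measured 20.4 ± 2.76 CPM in OCI-Ly1 and 153 ± 5.50 CPM in TMD8. TIPARP was closer, at 111 ± 7.81 CPM in OCI-Ly1 and 141 ± 11.2 CPM in TMD8. CYP1A1 had the other order, 39.0 ± 4.81 CPM in OCI-Ly1 and 8.62 ± 0.698 CPM in TMD8. In edgeR's quasi-likelihood fit of all 18 libraries, with Benjamini-Hochberg adjustment over all genes, AHR was lower in OCI-Ly1 by a log2 difference of -3.86 (SE 0.09, adjusted p = 5.8e-24). AHRR differed by -3.02 (SE 0.08, adjusted p = 8.2e-23). TIPARP differed by -0.46 (SE 0.06, adjusted p = 2.4e-07) on this scale, but by 0.52 (adjusted p = 1.4e-04) on log2(TPM + 1) and 0.53 on log2(TPM + 0.1). The median of all genes in this contrast moved from -0.02 to 0.61 and 0.88 on those TPM scales. Between the lines 76.7% of genes were called at an adjusted p under 0.05, 37.8% as higher in OCI-Ly1 and 39.0% as lower, so the 3 members called lower are read against that background. Per length, the order with DMSO in OCI-Ly1 was TIPARP (36.8 TPM), CYP1A1 (19.7 TPM), AHR (6.41 TPM) and AHRR (4.63 TPM). AHR and AHRR were neighbours there whose libraries did not overlap, at 6.07 to 6.94 and 4.09 to 5.31 TPM. In TMD8 the order was AHR (47.8 TPM), TIPARP (25.6 TPM), AHRR (19.3 TPM) and CYP1A1 (2.44 TPM).

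**Figure D1:**
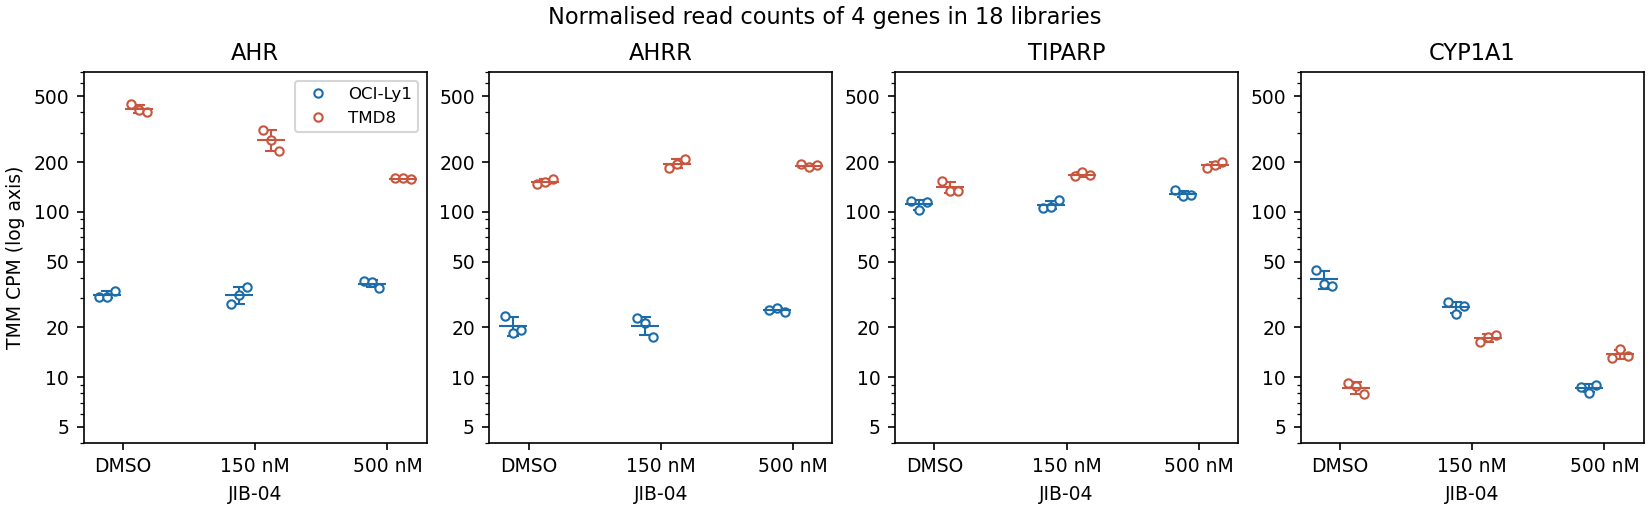
Normalised read counts (TMM CPM scaled within each line, log axis) of AHR, AHRR, TIPARP and CYP1A1 in the 18 libraries, by JIB-04 dose. Points are libraries, horizontal lines group means and error bars SD of 3 libraries. AHR in TMD8 descends from a mean of 421 CPM to 159 CPM, and CYP1A1 goes from higher in OCI-Ly1 with DMSO to higher in TMD8 at 500 nM (in TPM the OCI-Ly1 mean at 500 nM, 4.77, stays above the TMD8 mean, 2.99).

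The receptor's own RNA fell with dose in TMD8, and in OCI-Ly1, where it was scarcer, it was not lower at 500 nM. In TMD8 the DMSO libraries measured 448, 413 and 400.3 CPM of AHR, those at 150 nM measured 312, 271 and 232 CPM, and those at 500 nM 159.6, 160.1 and 158 CPM. Every library at 150 nM lay below every DMSO library, and every one at 500 nM below all others. The log2 change against DMSO was -0.63 at 150 nM (SE 0.08, adjusted p = 3.5e-06, edgeR) and -1.40 at 500 nM (SE 0.08, adjusted p = 7.0e-11), to 0.379 of the DMSO level. From 150 nM to 500 nM AHR fell by a further 0.77 on the log2 scale (SE 0.08, adjusted p = 2.0e-06). AHR was called in TMD8 under every alternative run for these 3 contrasts. With 1 library left out its change at 500 nM ran from -1.44 to -1.36. In bulk RNA, fewer cells carrying a transcript and less of it per cell cannot be told apart.

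In OCI-Ly1, AHR measured 30.7, 30.5 and 33.2 CPM with DMSO, 27.5, 31.4 and 34.9 CPM at 150 nM, and 38.0, 37.5 and 34.8 CPM at 500 nM. The 150 nM libraries spread around the DMSO ones, and the change was -0.014 (SE 0.08, adjusted p = 0.98, edgeR). The 500 nM libraries all lay above DMSO but overlapped with 150 nM, by less than 1 CPM. The change at 500 nM was 0.22 (SE 0.08, adjusted p = 0.030). Against 150 nM it was 0.24 (SE 0.08, adjusted p = 0.025), lost without any 1 of 150 nM replicates 1 and 2 and 500 nM replicates 1 and 2 (0.14 to 0.23, adjusted p from 0.071 to 0.15). This small rise was lost on centred log2(TPM + 1) (0.091, adjusted p = 0.39). It was also lost without DMSO replicate 1 (adjusted p = 0.093), DMSO replicate 2 (0.097), 500 nM replicate 1 (0.11) or 500 nM replicate 2 (0.087). The difference between the lines in the response, OCI-Ly1 minus TMD8, was 0.62 at 150 nM (SE 0.12, adjusted p = 5.1e-04) and 1.65 at 500 nM (SE 0.12, adjusted p = 3.1e-11). Of the 14483 genes tested in both lines, 726 (5.01%) were called higher in OCI-Ly1 and lower in TMD8 at 500 nM, as AHR was.

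AHRR, the repressor, rose in TMD8 at both doses in normalised read counts, opposite to the receptor, although at 500 nM its sign turned on log2(TPM + 1). Its libraries measured 147, 152 and 158 CPM with DMSO, 185, 194 and 209 CPM at 150 nM, and 195, 186 and 191 CPM at 500 nM. All 6 treated libraries stood above the DMSO ones, and the 2 doses overlapped. The log2 change was 0.36 at 150 nM (SE 0.05, adjusted p = 1.9e-05, edgeR) and 0.32 at 500 nM (SE 0.05, adjusted p = 3.1e-05). Between the doses it was -0.042 (SE 0.05, adjusted p = 0.60). On log2(TPM + 1) the change was 0.20 at 150 nM (adjusted p = 0.11) and turned to -0.051 at 500 nM (adjusted p = 0.65), while the median of all genes at 500 nM moved from 0.04 to -0.22.

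In OCI-Ly1, AHRR measured 23.6, 18.4 and 19.2 CPM with DMSO, 22.7, 21.3 and 17.6 CPM at 150 nM, and 25.6, 26.2 and 24.8 CPM at 500 nM. Only the 500 nM libraries stood apart from DMSO, and by a narrow gap from its highest library. The change was 0.0081 at 150 nM (SE 0.10, adjusted p = 0.99, edgeR) and 0.32 at 500 nM (SE 0.10, adjusted p = 0.013). The latter was lost without DMSO replicate 2 (0.25, adjusted p = 0.065), without DMSO replicate 3 (0.27, adjusted p = 0.056) and on centred log2(TPM + 1) (0.17, adjusted p = 0.16). The line difference was -0.35 at 150 nM (SE 0.11, adjusted p = 0.023). That call was lost without OCI-Ly1 DMSO replicate 1 (-0.22, adjusted p = 0.15), OCI-Ly1 150 nM replicate 3 (-0.25, adjusted p = 0.095) or TMD8 150 nM replicate 3 (-0.30, adjusted p = 0.069). At 500 nM the difference was 0.024 (SE 0.11, adjusted p = 0.89), and on log2(TPM + 1) it was 0.45 (adjusted p = 0.0048). RefSeq lists a read-through transcript of AHRR with its neighbour PDCD6, and the counting may have shared reads among the 3 transcripts. At 500 nM PDCD6 itself stood at -0.14 in OCI-Ly1 (adjusted p = 0.062, edgeR), a value that turned to 0.015 on log2(TPM + 1) and was called lower on centred log2(TPM + 1) (-0.21, adjusted p = 0.0066). In TMD8 it stood at -0.17 (adjusted p = 0.0090), not called with library size only (adjusted p = 0.15).

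TIPARP, the ADP-ribosyltransferase that restrains the receptor, rose stepwise with dose in TMD8 in normalised read counts, although the step from 150 nM to 500 nM turned on log2(TPM + 1). It measured 154, 135 and 134 CPM with DMSO, 164, 174 and 166 CPM at 150 nM, and 184, 193 and 199 CPM at 500 nM. No 2 dose groups overlapped. The log2 change was 0.26 at 150 nM (SE 0.06, adjusted p = 0.0011, edgeR) and 0.45 at 500 nM (SE 0.06, adjusted p = 1.7e-06). From 150 nM to 500 nM it was 0.19 (SE 0.06, adjusted p = 0.015). That last call was lost without 150 nM replicate 1 (0.17, adjusted p = 0.053), 500 nM replicate 2 (0.19, adjusted p = 0.055) or 500 nM replicate 3 (0.16, adjusted p = 0.081), and the value turned to -0.034 on log2(TPM + 1). Against DMSO the log2(TPM + 1) change stayed above 0 without a call, at 0.093 (adjusted p = 0.57) and 0.059 (adjusted p = 0.68).

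In OCI-Ly1, TIPARP measured 116, 102 and 115 CPM with DMSO, 106, 107 and 118 CPM at 150 nM, and 135, 125 and 126 CPM at 500 nM. As for AHRR, the 500 nM libraries alone stood above DMSO. The change was -0.015 at 150 nM (SE 0.06, adjusted p = 0.96, edgeR) and 0.21 at 500 nM (SE 0.06, adjusted p = 0.0095). The call at 500 nM was lost without DMSO replicate 2 (0.15, adjusted p = 0.076), without 500 nM replicate 1 (0.17, adjusted p = 0.061) and on centred log2(TPM + 1) (0.098, adjusted p = 0.21). The line difference was -0.27 at 150 nM (SE 0.09, adjusted p = 0.032) and -0.21 at 500 nM (SE 0.09, adjusted p = 0.059). The 150 nM difference was lost without any 1 of 7 libraries: OCI-Ly1 DMSO replicates 1 and 3, OCI-Ly1 150 nM replicates 1 and 2, TMD8 DMSO replicates 2 and 3, and TMD8 150 nM replicate 2. Across those its value ran from -0.24 to -0.23, with adjusted p from 0.065 to 0.093. It was also lost with DESeq2 (-0.24, adjusted p = 0.0505) and on log2(TPM + 1) (-0.067, adjusted p = 0.78). The 500 nM difference was called without OCI-Ly1 DMSO replicate 2 (-0.26, adjusted p = 0.025), OCI-Ly1 500 nM replicate 1 (-0.24, adjusted p = 0.044) or TMD8 DMSO replicate 1 (-0.28, adjusted p = 0.0093).

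TIPARP-AS1, a noncoding RNA that starts beside TIPARP on the other strand, rose at 500 nM in both lines. It measured 2.12 ± 0.354 CPM with DMSO and 4.57 ± 0.372 CPM at 500 nM in OCI-Ly1. In TMD8 it measured 2.76 ± 0.609 CPM in the DMSO group, 7.997 ± 1.76 CPM in the 150 nM group and 11.3 ± 1.06 CPM in the 500 nM group. The log2 change at 500 nM was 1.12 in OCI-Ly1 (SE 0.18, adjusted p = 5.7e-05, edgeR) and 2.01 in TMD8 (SE 0.18, adjusted p = 2.5e-08). The difference between the lines was -0.86 (SE 0.26, adjusted p = 0.0078). Strand is not stated for the counting, so reads of TIPARP and TIPARP-AS1 cannot be told apart where they overlap. Over the 18 libraries TIPARP-AS1 held 35 to 199 counts and TIPARP 1738 to 4522.

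Of the 3 members tested, 0 were called in OCI-Ly1 at 150 nM, and 0 had an unadjusted p under 0.05 in edgeR or a call in DESeq2, where edgeR called 0.889% of 15638 genes (0.748% higher and 0.141% lower) and 14.0% of genes had groups that did not overlap. At 500 nM in OCI-Ly1 all 3 were called higher, against 27.7% of genes called higher, 25.9% lower and 53.6% in either direction. Groups did not overlap for 60.7% of genes in that contrast. From 150 nM to 500 nM in OCI-Ly1 all 3 were called higher as well (AHRR 0.31, adjusted p = 0.017, lost without 150 nM replicate 3, 500 nM replicate 1 or 500 nM replicate 2; TIPARP 0.23, adjusted p = 0.0072, lost without 500 nM replicate 1), where 25.1% of genes were called higher, 21.1% lower and 46.2% in all, and 55.6% had no overlap. In TMD8 the 3 were all called at both doses, 2 higher and AHR lower. Of 15363 genes there, 19.2% were called higher and 25.0% lower at 150 nM, and 29.9% higher and 30.7% lower at 500 nM. Calls in either direction came to 44.2% and 60.7%, and groups without overlap to 51.4% and 66.4%. From 150 nM to 500 nM in TMD8, AHR was called lower and TIPARP higher, where 13.7% of genes were called higher, 15.0% lower and 28.7% in all, and 44.8% had no overlap. For the line difference, 23.3% of 16604 genes were called at 150 nM (15.0% higher in OCI-Ly1 relative to TMD8, 8.33% lower), beside 3 of the 3 members, 1 of them higher. At 500 nM 46.4% were called (28.2% higher, 18.1% lower), beside 1 of the 3, which was higher. With more than 40% of genes called against DMSO in 3 of the 4 contrasts, the number of members called there says little of the pathway itself.

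**Figure D2:**
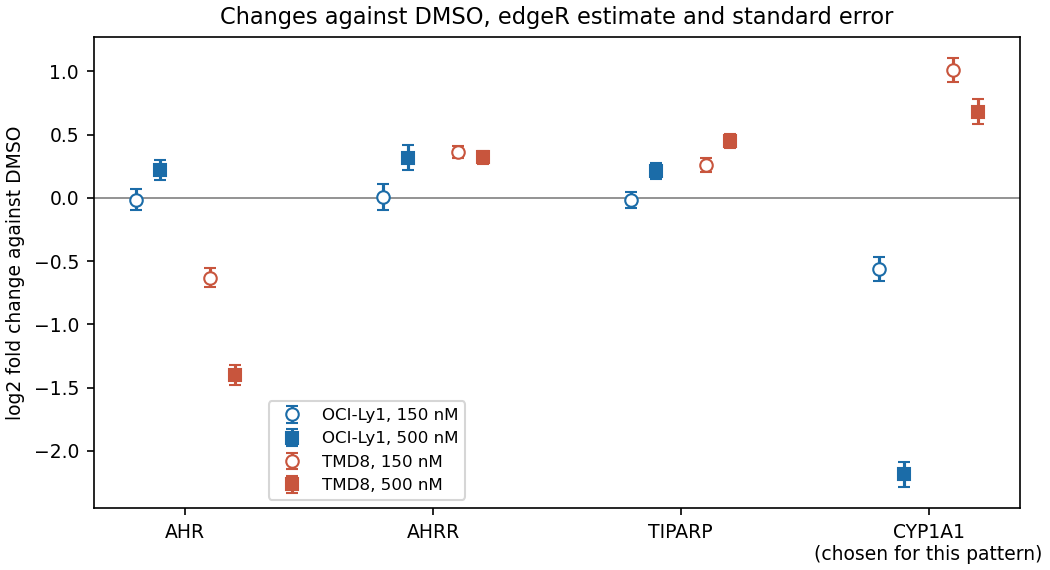
Log2 fold change against DMSO of AHR, AHRR, TIPARP and CYP1A1 by line and dose. Points are edgeR estimates on normalised read counts and error bars their standard errors. AHR in TMD8 is at -0.63 and -1.40 while AHRR and TIPARP there are above 0 (AHRR at 500 nM turns to -0.051 on log2(TPM + 1)). CYP1A1, chosen for this pattern, lies below 0 in OCI-Ly1 and above 0 in TMD8.

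CYP1A1, the enzyme gene most often used as a readout of receptor activity, is described here without a test because its opposite movement chose it. In OCI-Ly1 it measured 44.5, 36.8 and 35.6 CPM with DMSO, 28.3, 24.1 and 26.9 CPM at 150 nM, and 8.70, 8.02 and 8.99 CPM at 500 nM. The 3 dose groups did not overlap and stepped down. The log2 change was -0.56 (SE 0.09) at 150 nM and -2.18 (SE 0.10) at 500 nM, to 0.220 of DMSO. In TMD8 it measured 9.21, 8.80 and 7.85 CPM with DMSO, 16.3, 17.5 and 18.01 CPM at 150 nM, and 13.1, 14.8 and 13.4 CPM at 500 nM. There the peak was at 150 nM, with the 500 nM libraries between it and DMSO. The log2 change was 1.01 (SE 0.09) at 150 nM and 0.68 (SE 0.10) at 500 nM, and it stayed above 0 on log2(TPM + 1), at 0.65 and 0.22. From 150 nM to 500 nM in TMD8 it was -0.33. The mean of OCI-Ly1 at 500 nM was 8.57 ± 0.501 CPM, and that of TMD8 with DMSO was 8.62 ± 0.698 CPM. CPM were scaled within each line, so these 2 means cannot be called alike, and in TPM they were 4.77 and 2.44. The estimated counts, 131 to 1122, were exactly whole as deposited, with no tolerance, in all 18 libraries. Of the 14483 genes tested in both lines, 506 (3.49%) were called lower in OCI-Ly1 and higher in TMD8 at 500 nM, the class from which CYP1A1 was taken.

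CYP1A2 lies head to head with CYP1A1, shares its upstream region and encodes a related P450 of the liver. CYP1A2 was named for description when earlier results of these data were already known. Its p-values may therefore not be free of that choice, and its direction is not an independent check on CYP1A1. At 500 nM it too moved down in OCI-Ly1 and up in TMD8, by less. In OCI-Ly1 it measured 14.7, 13.6 and 15.3 CPM with DMSO, 12.3, 14.2 and 11.1 CPM at 150 nM, and 10.9, 12.1 and 12.2 CPM at 500 nM. In TMD8 it measured 9.21, 15.8 and 14.8 CPM with DMSO, 15.5, 15.2 and 16.7 CPM at 150 nM, and 17.5, 18.4 and 18.4 CPM at 500 nM. The 500 nM libraries did not overlap with DMSO in either line, though DMSO replicate 1 of TMD8 was low. The log2 change at 500 nM was -0.31 in OCI-Ly1 (SE 0.10, adjusted p = 0.017, edgeR) and 0.43 in TMD8 (SE 0.14, adjusted p = 0.011). The line difference was -0.72 at 500 nM (SE 0.18, adjusted p = 0.0019) and -0.45 at 150 nM (SE 0.18, adjusted p = 0.071). With 1 library left out the 500 nM difference ran from -0.85 to -0.53 and was called each time. On log2(TPM + 1) it was -0.23 (adjusted p = 0.22), and neither line's change at 500 nM was called there (-0.15 in OCI-Ly1 and 0.079 in TMD8). The OCI-Ly1 change was also lost with library size only (adjusted p = 0.082), without DMSO replicate 3 (adjusted p = 0.063) or without 500 nM replicate 1 (adjusted p = 0.075). Without TMD8 DMSO replicate 1 the TMD8 change was 0.23 (adjusted p = 0.024). The 150 nM line difference was called without OCI-Ly1 150 nM replicate 2 (adjusted p = 0.041), TMD8 DMSO replicate 2 (0.024) or TMD8 DMSO replicate 3 (0.047), with no low-count filter (0.041), and with the replicate block (0.048). Its estimated counts were fractional, so some of its reads were shared with other transcripts.

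CYP1B1, the family member found mainly outside the liver, was barely present. In OCI-Ly1 the DMSO libraries held 5, 0 and 5 estimated counts of it, the 150 nM libraries 2, 6 and 3, and the 500 nM libraries 6, 7 and 4. In TMD8 the DMSO libraries held 1, 1 and 2, the 150 nM libraries 0, 0 and 2, and the 500 nM libraries 1, 4 and 1. All lay below the count filter, so no fold change is given. A library at 0 allows up to 3 counts. Without TMM scaling that is 0.171 CPM in the OCI-Ly1 DMSO library, and 0.219 and 0.211 CPM in the TMD8 libraries at 150 nM. This covers counting error only. CYP1B1-AS1, its antisense partner, held 2 to 12 counts in OCI-Ly1 and 0 to 3 in TMD8. No difference between groups was tested for either gene.

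Ratios within a library do not depend on how the library is scaled, and they set the 3 targets against the receptor. In TMD8 the ratio of AHRR to AHR in TPM was 0.406 ± 0.0376 with DMSO, 0.822 ± 0.172 at 150 nM and 1.34 ± 0.0348 at 500 nM. At 500 nM the repressor's RNA exceeded the receptor's in all 3 libraries. In OCI-Ly1 the same ratio was 0.725 ± 0.114, 0.747 ± 0.179 and 0.778 ± 0.0215, a difference within the spread of the libraries. TIPARP to AHR went in TMD8 from 0.535 ± 0.0155 to 0.998 ± 0.148 and 1.91 ± 0.0936, with no overlap between doses. In OCI-Ly1 it was 5.74 ± 0.304, 5.78 ± 0.380 and 5.63 ± 0.233. CYP1A1 to AHR, again a description, went from 3.09 ± 0.473 to 2.13 ± 0.372 and 0.582 ± 0.0564 in OCI-Ly1, and from 0.0510 ± 0.00214 to 0.161 ± 0.0316 and 0.215 ± 0.0134 in TMD8. The 2 lines lay closer together in this ratio at 500 nM than with DMSO. From DMSO to 500 nM in TMD8, mean AHR went from 47.8 to 13.9 TPM. AHRR went from 19.3 to 18.5 TPM, TIPARP from 25.6 to 26.6 TPM and CYP1A1 from 2.44 to 2.99 TPM. The rise of the 3 ratios there is therefore mostly the fall of AHR, their denominator. No test was run on the ratios.

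**Figure D3:**
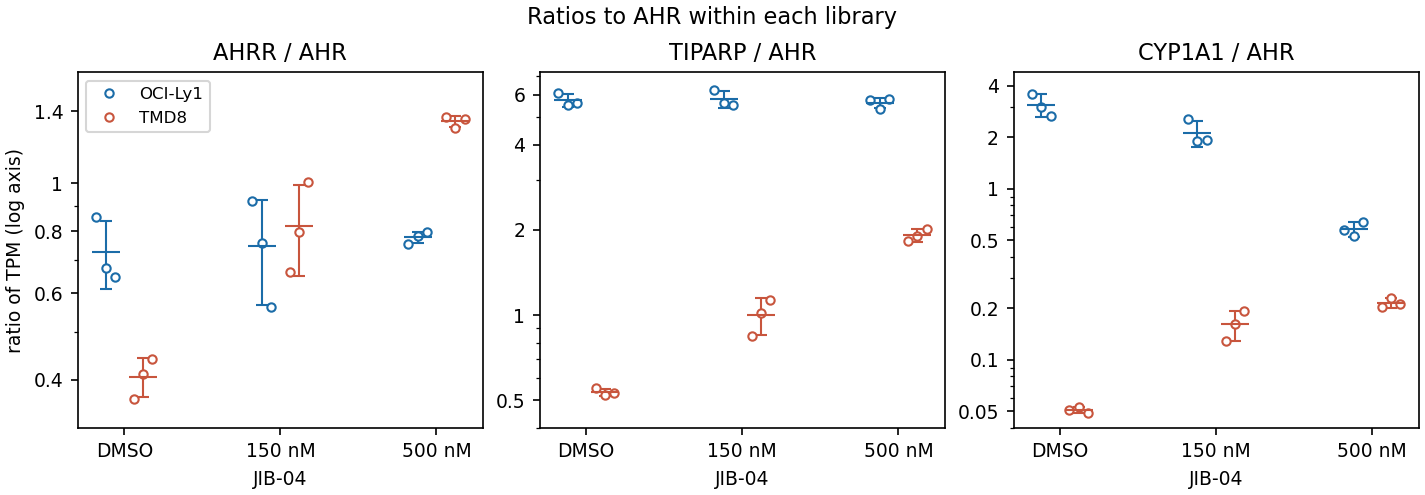
Ratio of the TPM of AHRR, TIPARP and CYP1A1 to that of AHR within each library (log axes), by JIB-04 dose and line. Points are libraries, lines means and error bars SD of 3 libraries. In TMD8 AHRR to AHR goes from 0.406 to 1.34 and TIPARP to AHR from 0.535 to 1.91, while in OCI-Ly1 both stay within 0.725 to 0.778 and 5.63 to 5.78. The denominator, AHR, goes from a mean of 47.8 to 13.9 TPM in TMD8.

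HSP90AA1 and PTGES3, of the receptor's chaperone complex, fell in both lines at 500 nM. HSP90AB1 and HSP90AA1 encode the HSP90 that holds the receptor ready for ligand, and many other client proteins too. In OCI-Ly1, HSP90AB1 went from 2312 ± 80.4 CPM with DMSO to 1139 ± 14.6 CPM at 500 nM, a log2 change of -1.02 (SE 0.04, adjusted p = 1.2e-12, edgeR). HSP90AA1 changed by -0.85 (SE 0.05) in OCI-Ly1 and by -0.82 (SE 0.06) in TMD8, where it went from 1715 ± 124 CPM to 973 ± 27.4 CPM. PTGES3 (p23) changed by -0.50 (SE 0.06) in OCI-Ly1 and -0.80 (SE 0.05) in TMD8, all 3 with adjusted p of at most 2.1e-06. ARNT, the receptor's partner on DNA, was 71.1 ± 2.68 CPM with DMSO and 66.7 ± 0.313 CPM at 500 nM in OCI-Ly1 (-0.092, SE 0.06, adjusted p = 0.17), with a call on centred log2(TPM + 1) only (-0.18, adjusted p = 0.013). In TMD8 it was 52.9 ± 4.90 and 56.4 ± 1.10 CPM (0.094, SE 0.06, adjusted p = 0.21), called with library size only (0.19, adjusted p = 0.0091) or without DMSO replicate 1 (0.17, adjusted p = 0.0085). On log2(TPM + 1) both values changed sign, to 0.046 and -0.25, without a call. EPAS1 (HIF-2alpha), which also pairs with ARNT, rose in TMD8 from 5 to 7 counts per library to 66 to 76, from 0.325 ± 0.104 CPM to 5.74 ± 0.904 CPM (log2 change 4.12, SE 0.30, adjusted p = 2.1e-09). Of the 8 genes of the receptor complex and its dimer partners, 6 were tested in OCI-Ly1 at 500 nM, with 1 called higher, 4 lower and a median of -0.35 beside -0.0033 over all genes. In TMD8, 8 were tested, 2 higher and 4 lower, with a median of -0.11 beside 0.041. Over all genes 27.7% were called higher and 25.9% lower in OCI-Ly1, and for TMD8 29.9% and 30.7%.

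Of 6 coregulators that the receptor recruits, 5 were called higher at 500 nM and 0 lower in each line in normalised read counts, with medians of 0.33 and 0.31, but on log2(TPM + 1) in TMD8 only 1 was called higher and 1 lower (median -0.058). Over all genes 27.7% were called higher in OCI-Ly1 and 29.9% in TMD8. Among all genes called in TMD8 on log2(TPM + 1), 18.8% were higher. The exceptions were NCOA3 in OCI-Ly1 (-0.021, adjusted p = 0.73, edgeR) and EP300 in TMD8 (-0.12, adjusted p = 0.069), named after their values were seen. CREBBP, a histone acetyltransferase, changed by 0.62 (SE 0.07, adjusted p = 1.4e-06, edgeR) in OCI-Ly1. NCOA2, a p160 coactivator, changed by 0.48 (SE 0.06) in OCI-Ly1 and 0.41 (SE 0.06) in TMD8. Its relative NCOA3 changed by 0.50 (SE 0.05) in TMD8, from 468 ± 30.8 to 660.1 ± 4.05 CPM. In TMD8 neither was called on log2(TPM + 1), at 0.032 and 0.12. NRIP1, a corepressor, changed by 1.13 (SE 0.09, adjusted p = 8.1e-09) in TMD8, from 10.2 ± 1.07 to 22.3 ± 0.787 CPM. In OCI-Ly1 its counts went from 0 to 4 per library with DMSO to 58 to 124 at 500 nM, and no fold is given.

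Other genes reported as receptor targets did not move as one set. Of 20 listed, 9 were tested in OCI-Ly1 at 500 nM, with 3 higher, 4 lower and 2 not called. In TMD8 13 were tested, with 5 higher, 1 lower and 7 not called, and on log2(TPM + 1) that became 2 higher and 4 lower. Over all genes 53.6% were called in OCI-Ly1 and 60.7% in TMD8. Among all genes called in TMD8 on log2(TPM + 1), 18.8% were higher. SLC7A5, which carries tryptophan and other large amino acids into cells, changed by 0.84 (SE 0.07, adjusted p = 1.4e-08, edgeR) in OCI-Ly1 and 0.57 (SE 0.05, adjusted p = 1.0e-08) in TMD8, where it was not called on log2(TPM + 1) (0.19, adjusted p = 0.11). XDH, xanthine dehydrogenase, changed by -0.66 (SE 0.15, adjusted p = 0.0011) in OCI-Ly1. EREG, an EGF-family ligand at 3.09 ± 0.631 CPM with DMSO, changed by -0.69 (SE 0.23, adjusted p = 0.016) in OCI-Ly1, a call lost without DMSO replicate 2 (adjusted p = 0.069) or 500 nM replicate 2 (adjusted p = 0.051). CCNG2, a cyclin linked to arrest of the cell cycle, changed by 0.84 (SE 0.08, adjusted p = 4.3e-08) in TMD8. HES1, a Notch-responsive repressor, went from 0 to 3 counts per library with DMSO to 11 to 19 at 500 nM in TMD8.

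Of 8 enzymes tested that make receptor ligands from tryptophan, 4 were called lower and 0 higher in OCI-Ly1 at 500 nM (median -0.42), with 1 higher and 4 lower on log2(TPM + 1). In TMD8 3 of 7 were called lower and 2 higher, with 5 lower and 1 higher on log2(TPM + 1). Over all genes 25.9% were called lower and 27.7% higher in OCI-Ly1, and for TMD8 30.7% and 29.9%. Among all genes called on log2(TPM + 1), 71.9% were higher in OCI-Ly1 and 18.8% in TMD8. AFMID, which cleaves formylkynurenine, changed by -0.49 (SE 0.06, adjusted p = 5.0e-06, edgeR) in OCI-Ly1 and -0.85 (SE 0.07, adjusted p = 1.8e-08) in TMD8. KMO, kynurenine monooxygenase, changed by -0.50 (SE 0.09, adjusted p = 2.0e-04) in OCI-Ly1. CCBL1 (KYAT1), a kynurenine aminotransferase, changed by 0.94 (SE 0.14, adjusted p = 1.4e-05) in TMD8. IDO1, which opens the tryptophan ring, was scarce at 0.855 ± 0.356 CPM and changed by 0.95 (SE 0.31, adjusted p = 0.015) in TMD8, a call lost without DMSO replicate 1 (adjusted p = 0.057) or 500 nM replicate 1 (adjusted p = 0.064), and on log2(TPM + 1) (adjusted p = 0.063).

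Relatives of TIPARP in the ADP-ribosyltransferase family, with the enzymes that remove the mark, were split. At 500 nM 7 of 18 tested were called higher and 3 lower in OCI-Ly1, which on log2(TPM + 1) became 11 and 2. For TMD8 the counts were 6 of 19 higher and 5 lower, which became 2 and 11. The shares over all genes in normalised read counts were 27.7% higher and 25.9% lower for OCI-Ly1, with 29.9% and 30.7% for TMD8. On log2(TPM + 1) 7979 of 15638 genes were called in OCI-Ly1, 71.9% of them higher. In TMD8 9332 of 15363 were called on that scale, 18.8% of them higher. PARP15, whose product also adds single ADP-ribose units, changed by 0.81 (SE 0.15, adjusted p = 2.4e-04, edgeR) in OCI-Ly1 and 0.77 (SE 0.06, adjusted p = 7.1e-09) in TMD8. PARP14 changed by 0.86 (SE 0.11) in OCI-Ly1 and PARP10 by 0.81 (SE 0.07) in TMD8. Of the erasers, MACROD1 changed by 0.96 (SE 0.21, adjusted p = 9.2e-04) in OCI-Ly1 and MACROD2 by -0.77 (SE 0.20, adjusted p = 0.0028) in TMD8, the latter lost on centred log2(TPM + 1) (-0.14, adjusted p = 0.14).

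Of 53 other cytochrome P450 genes in the tables, taken by symbol, 20 were tested in each line. At 500 nM 2 were called higher and 6 lower in OCI-Ly1 (median -0.39), while in TMD8 9 were higher and 1 lower (median 0.28). On log2(TPM + 1) the OCI-Ly1 counts were 5 higher and 4 lower, and those of TMD8 4 higher and 6 lower. On centred log2(TPM + 1) they were 1 higher and 12 lower in OCI-Ly1, with 11 higher and 0 lower for TMD8. Among all genes called on log2(TPM + 1), 71.9% were higher in OCI-Ly1 and 18.8% in TMD8. On the centred scale these were 32.3% and 48.3%. The 6 of 20 called lower in OCI-Ly1 stood near the 25.9% of all genes called lower there, and the 9 of 20 higher in TMD8 beside 29.9%. At 150 nM 7 were called higher and 2 lower in TMD8, beside 19.2% and 25.0% of all genes. For the line difference at 500 nM, 0 of 24 tested were called higher and 7 lower in OCI-Ly1 relative to TMD8. Among all genes 28.2% were called higher and 18.1% lower in that contrast. POR, the reductase that feeds electrons to these enzymes, changed by 0.55 (SE 0.07, adjusted p = 6.0e-06, edgeR) in OCI-Ly1 and -0.28 (SE 0.07, adjusted p = 0.0029) in TMD8, opposite in sign to CYP1A1 in both. CYB5A, cytochrome b5, changed by -0.26 (SE 0.08, adjusted p = 0.011) in TMD8, and this was lost without 500 nM replicate 3 (adjusted p = 0.056) and with library size only (adjusted p = 0.085). At 150 nM in OCI-Ly1 edgeR called 0 of the 69 pathway and P450 genes tested, where 5 had an unadjusted p under 0.05 and DESeq2 called 0.

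**Figure D4:**
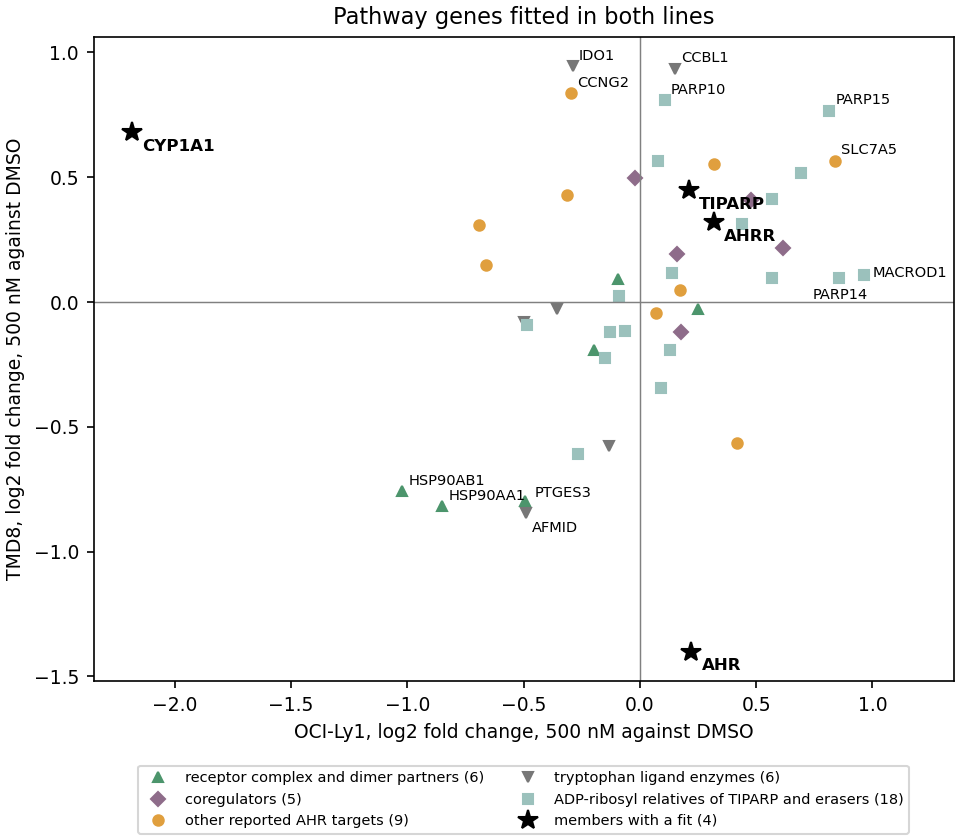
Log2 fold change at 500 nM against DMSO in TMD8 (vertical) and OCI-Ly1 (horizontal), edgeR estimates on normalised read counts. Symbols show 44 pathway genes by list, limited to those above 3 counts in every DMSO and 500 nM library, and stars the 4 members fitted. HSP90AB1, HSP90AA1 and PTGES3 lie low in both lines, and AHR and CYP1A1 lie in opposite corners. On log2(TPM + 1) the median of all genes shifts to 0.10 in OCI-Ly1 and -0.22 in TMD8.

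The genes whose pattern lay closest to each member were ranked by Pearson's r of log2 CPM, centred within each line, over the 18 libraries and 15595 genes. The points share libraries and doses, so r is a description of likeness. CYP1A1 was most like FCRL3 (r = 0.984), which encodes a receptor of the Fc receptor-like family on B cells. Next came GM2A (0.959), CLCN5 (0.955), TBC1D1 (0.947) and NCF4 (0.938). FCRL3 measured 109 ± 1.38 CPM with DMSO and 57.7 ± 3.302 CPM at 500 nM in OCI-Ly1, and 248 ± 5.13 and 281 ± 3.93 CPM in TMD8. GM2A, the GM2 ganglioside activator, measured 253 ± 11.6 and 146 ± 2.31 CPM in OCI-Ly1, and 135 ± 5.15 and 172 ± 8.80 CPM in TMD8. Both had lower means in OCI-Ly1 and higher means in TMD8 at 500 nM, as CYP1A1 had, with smaller differences. Genes of this ranking, here and below, were picked for likeness in these libraries, so shared directions are no separate result.

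AHR was most like MINA (r = 0.978), itself a Jumonji-domain protein gene, then FAM175B (0.975) and PIP4K2A (0.974). MINA measured 62.3 ± 2.35 CPM with DMSO and 70.2 ± 2.88 CPM at 500 nM in OCI-Ly1, and 113 ± 6.48 and 58.3 ± 5.31 CPM in TMD8. AHRR was most like FCRL5 (0.932), TNF (0.919) and PCSK7 (0.919). In TMD8 the DMSO level of FCRL5 was 399 ± 11.8 CPM, and the 150 nM and 500 nM levels were 549.6 ± 21.8 and 539 ± 12.5 CPM, near each other as those of AHRR were. TIPARP was most like NFE2L2 (0.966), the antioxidant regulator NRF2 and one of the listed receptor targets, then ABI1 (0.950) and LOC100271836 (0.947). NFE2L2 changed by 0.32 (SE 0.07, adjusted p = 6.7e-04, edgeR) in OCI-Ly1 and 0.55 (SE 0.08) in TMD8 at 500 nM, close in size to TIPARP's 0.21 and 0.45. CYP1B1 was too low to rank. Without centring within the line, 0 of 3 genes were shared with the list for AHR, 1 of 3 for AHRR, 0 of 3 for TIPARP and 1 of 5 for CYP1A1. On log2(TPM + 0.1) 2 of 5 were shared for CYP1A1 and 2 of 3 for each of the others. GM2A ranked first for CYP1A1 in both alternatives, and on log2(TPM + 0.1) FCRL3 ranked 4.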

How the data were processed

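Libraries were made from rRNA-depleted total RNA, per the labels' protocols. The authors deposited estimated counts and TPM per gene for each line; kallisto 0.46.0, DESeq2 1.40.2, R 4.3.1 and hg19 are named in the submitters' processing notes, without roles. The index, the annotation and the step from transcripts to genes are not given in the sources used here. The deposited estimated counts, per the file headers 1 column per library, were fractional in part and were rounded. TPM as deposited, each library totalling 1000000, served for levels per length, ratios and alternatives.

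The 9 libraries of a line were fitted together in edgeR 4.0.16 (R 4.3.3) with TMM scaling, its low-count filter by group and the quasi-likelihood test. Line differences and the contrast of the lines with DMSO came from 1 fit of all 18. Printed CPM levels were scaled within each line, and the log2 CPM used for likeness over all 18. P-values were adjusted by Benjamini-Hochberg within each contrast over all genes, and calls made under 0.05. The scripts were tested on simulated data. Alternatives were library size alone, DESeq2 1.42.0, no filter, limma 3.58.1 on log2(TPM + 1), log2(TPM + 0.1) and centred log2(TPM + 1), a replicate block, only the 2 groups compared, and each library left out.

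Members and lists were chosen with earlier results of these data known. Named genes were the members, ARNT, CYP1A2, overlapping partners, per list at most 3 genes with the largest called change at 500 nM in a line (mean of at least 1 CPM), and the genes most like each member (prior count 2 in log2 CPM). CYP1A1 was fitted with the other genes, which gave its SE, but its p is not reported. A B-cell marker of the list is not reported here. Libraries of a group differed by more than sampling noise (chi-square per degree of freedom 1.65 to 11.5 in 18 pairs). Libraries with the same number in different groups correlated at -0.05 to 0.15 in OCI-Ly1 and -0.05 to 0.14 in TMD8, so the numbers were not taken as pairs. RefSeq promoters were matched by symbol for 4 of 5 members.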

Additional observations from a re-analysis of the deposited data

Results flagged for a closer look

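The response to JIB-04 differed between the lines, by the interaction term in edgeR, for 3 members at 150 nM and 1 at 500 nM. The same contrasts called 23.3% of all genes at 150 nM and 46.4% at 500 nM. Values are the log2 change in OCI-Ly1 minus that in TMD8. AHR differed by 0.62 at 150 nM (SE 0.12, adjusted p = 5.1e-04) and by 1.65 at 500 nM (SE 0.12, adjusted p = 3.1e-11), with all 6 treated TMD8 libraries below every DMSO library. In TMD8 51.4% of all genes had no overlap with DMSO at 150 nM, and 66.4% at 500 nM. AHRR differed by -0.35 at 150 nM (SE 0.11, adjusted p = 0.023). TIPARP differed by -0.27 at 150 nM (SE 0.09, adjusted p = 0.032). The AHR differences were called under every alternative run. Those of AHRR and TIPARP were not called on any of the 3 TPM scales, and that of TIPARP was not called with DESeq2 (adjusted p = 0.0505). With 1 library left out, the adjusted p in edgeR reached 0.15 for AHRR and 0.093 for TIPARP.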

How the results depend on the processing

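AHR in TMD8, and its line differences, kept direction and call under all alternatives. On log2(TPM + 1) and log2(TPM + 0.1) the members called in TMD8 dropped to 1 of 3 at either dose against DMSO. Between doses the number was 2, and 1 on all 3 TPM scales. In OCI-Ly1 the members called at 500 nM, against DMSO and against 150 nM, were 3 but 0 on centred log2(TPM + 1). For the line difference at 150 nM, 3 became 1 on all 3 TPM scales. For that at 500 nM, 1 became 2 with library size only, on log2(TPM + 1) and log2(TPM + 0.1), and with the replicate block, where TIPARP was -0.21 (adjusted p = 0.0499). With 1 library left out, members called ran from 0 to 3 in both OCI-Ly1 contrasts of 500 nM, from 1 to 2 in TMD8 between doses, from 1 to 3 for the 150 nM line difference and from 1 to 2 for the other. The causes were not tested.

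Signs turned on log2(TPM + 1) and log2(TPM + 0.1) as follows. In OCI-Ly1 at 150 nM AHR was 0.016 and 0.018, and TIPARP 0.027 and 0.027. In TMD8 AHRR was -0.051 and -0.054 at 500 nM, and TIPARP -0.034 and -0.035 between doses. For TIPARP the line difference at 500 nM was 0.26 and 0.27, and the DMSO contrast 0.52 and 0.53. ARNT at 500 nM was 0.046 and 0.048 for OCI-Ly1, -0.25 and -0.28 for TMD8. PDCD6 in OCI-Ly1 was 0.015 and 0.015. The AHRR line difference at 500 nM was -0.013 with library size only and -0.0044 on centred log2(TPM + 1). With 1 library left out that difference ran from -0.029 to 0.15. In OCI-Ly1 at 150 nM, AHR ran from -0.096 to 0.074, AHRR from -0.067 to 0.13 and TIPARP from -0.068 to 0.021. None of these OCI-Ly1 values at 150 nM was called.

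Genes called in OCI-Ly1 at 150 nM were 139, and 240 with DESeq2, 323 without the filter, 61, 74 and 50 on log2(TPM + 1), log2(TPM + 0.1) and centred log2(TPM + 1), 81 with only the 2 groups compared, 207 with the replicate block and 65 to 339 with 1 library left out. The share of calls that were higher moved with the scale: at 500 nM it was 51.6% in OCI-Ly1 (64.0% with library size only, 71.9% on log2(TPM + 1), 32.3% on centred log2(TPM + 1)) and 49.3% in TMD8 (59.4%, 18.8% and 48.3%). At 150 nM in TMD8 it was 43.5% (60.5%, 21.3% and 36.0%), and in OCI-Ly1 84.2% (98.4% on log2(TPM + 1)). CYP1B1 lay below the low-count filter, so no fold change is given for it.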

Other observations

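CSK, a kinase that restrains SRC-family kinases and lies near CYP1A1 and CYP1A2, went from 143 ± 12.3 CPM with DMSO to 82.8 ± 4.36 CPM at 500 nM in OCI-Ly1 (log2 change -0.79, SE 0.07, adjusted p = 3.0e-08, edgeR). In TMD8 it went from 437 ± 7.17 to 277 ± 4.91 CPM (-0.66, SE 0.05, adjusted p = 1.3e-09), so it fell in both lines while CYP1A1 was lower in OCI-Ly1 and higher in TMD8. RMDN2, the neighbour of CYP1B1, changed by 0.71 (SE 0.15, adjusted p = 5.6e-04) in OCI-Ly1 and by 0.82 (SE 0.16, adjusted p = 3.1e-04) in TMD8. Of 11 neighbouring or overlapping genes tested at 500 nM, OCI-Ly1 had 3 called higher and 3 lower, while TMD8 had 4 called higher and 4 lower. Calls among all genes came to 53.6% and 60.7%, respectively.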
